A study of Mus musculus with 9 samples.

Results

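The genes described here encode the enzymes that add or remove chemical marks on histones and DNA, together with the bromodomain proteins that bind acetylated histones. They were taken by symbol, as every gene named Hdac, Kdm, Kat, Setd, Tet, Dnmt, Ezh or Brd followed by a digit. This gave 61 of the 22376 gene symbols in the files: 11 Hdac, 8 Kat, 7 Brd, 8 Setd, 2 Ezh, 17 Kdm, 5 Dnmt and 3 Tet genes. Of these, 60 passed the filter on low values and were tested. Kdm4d did not pass, and in no library did it exceed 0.228 CPM (exonic reads per 1000000 of a library's scaled total). The label does not cover every gene that the symbols bring in. Dnmt3aos is a noncoding RNA read antisense to Dnmt3a, Dnmt3l encodes a cofactor without catalytic activity, Setd3 methylates actin, and the Brd proteins are readers of marks.

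Histone acetyltransferases (Kat) add acetyl groups to lysines, which loosens chromatin and creates binding sites for bromodomains, and deacetylases (Hdac) take them off again. Lysine methylation is written by proteins with a SET domain, such as Setd2 and the Polycomb enzymes Ezh1 and Ezh2, and removed by the demethylases (Kdm), most of which use a JmjC domain with iron and oxoglutarate. DNA methyltransferases (Dnmt) methylate cytosine in CpG dinucleotides, and TET enzymes oxidise that mark. In macrophages several of these genes, among them Kdm6b, are known to respond to inflammatory signals.

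The cells were bone-marrow-derived macrophages from wild-type C57Bl/6 mice, primary cells and not a line. In all groups marrow was grown for a week with M-CSF, the macrophage growth factor, at 10 ng/ml, after which M-CSF was washed out and 50000 cells were plated for 48 h. The groups were wells given anti-PD-L1 antibody at 100 µg/ml (libraries 1 to 3), wells with 100 µg/ml of an isotype-matched antibody of irrelevant specificity (libraries 4 to 6) and wells without antibody (libraries 7 to 9). The comparison of the antibodies asks what the PD-L1 antibody did beyond the presence of antibody protein, and the comparison of isotype antibody with no antibody asks what that protein did by itself. Whether the wells of a group held cells of different mice or different cultures is not given in the labels, and p-values therefore reflect spread among samples that may be only technical.

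The 9 libraries held 23554320 to 40116467 exonic read equivalents each, and 13741 genes were tested. Summed macrophage markers came to 18800 to 22680 CPM with the PD-L1 antibody, 17950 to 21420 with the isotype antibody and 16050 to 21120 untreated. Of 6 tested, 2 rose and 1 fell against each control. Cd3d, Cd3e and Cd3g of the T cell list, Ms4a1 and Pax5 of the B cell list and Ncr1 of the NK cell list stayed below 1 CPM in every library. The summed B cell list was at 4.58 to 5.73, 5.19 to 6.64 and 5.18 to 10.3 CPM in the same order, with none of 2 tested called. Stroma markers summed to 28.25 to 45.6, 20.5 to 33.3 and 28.0 to 56.6 CPM. Of 5 tested, 2 rose against the isotype antibody, and 1 rose and 1 fell against untreated cells. Mast cell or basophil markers summed to 26.9 to 57.5, 28.15 to 64.0 and 35.4 to 47.95 CPM, with none of 4 called. The summed T cell list, which also holds genes of other cells such as Cd4, was at 3.21 to 6.16 CPM with the PD-L1 antibody, 5.52 to 13.8 with the isotype antibody and 11.6 to 23.1 untreated, with 1 of 4 tested lower against the isotype antibody and 2 against untreated cells. Erythroid markers summed to 1.23 to 2.27, 3.78 to 7.49 and 6.50 to 8.08 CPM in the same order (1 and 2 of 3 tested lower). Dendritic cell markers summed to 401.6 to 458.8, 314.1 to 528.7 and 265.7 to 512.8 CPM, and of 7 tested 1 rose and 3 fell against the isotype antibody and 2 rose and 3 fell against untreated cells. Summed neutrophil and granulocyte precursor markers (12 genes) were lower with the PD-L1 antibody, at 426.5 to 573.4 CPM against 749.8 to 1352 with the isotype antibody and 575.4 to 760.0 untreated. Of 11 tested, 5 fell and none rose against the isotype antibody, and 7 fell and 1 rose against untreated cells. Genes of S phase and mitosis were lower as well. Of 24, 17 fell against the isotype antibody and 14 against untreated cells, and none rose. Their summed level was 351.6 to 388.1 CPM with the PD-L1 antibody, 498.0 to 597.9 with the isotype antibody and 445.7 to 535.9 untreated. In such bulk samples fewer cells of a type and less RNA per cell cannot be told apart, and the part of these cell populations in the changes below was not tested. PD-L1 antibody 2 was read in another lane than the other 8 libraries, and untreated 7 stood apart from untreated 8 and 9: it lay within the range of the isotype libraries for 32 of the 60 tested members, against 16 and 15 for the other two.

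Of the 61 genes, 47 were at 10 CPM or more in every library and 2 (Kdm4d and Tet1) were below 1 CPM in every library. Compared per kilobase of exon in untreated cells, the bromodomain gene Brd2 had the highest level of all members (87.8 CPM per kb), followed by the class IIa deacetylase gene Hdac5 (33.4), Setd3 (29.4), Dnmt3a (21.9) and the acetyltransferase gene Kat5 (20.5). The highest of the other families were Kdm4a among the demethylases (16.9), Ezh1 (16.4) and Tet3 (13.4). Tet1 (0.0385) and Dnmt3l (0.101) were the lowest tested members on this scale. Members of a family differed widely, as Ezh1 was at 16.4 and Ezh2, the Polycomb methyltransferase of dividing cells, at 3.43 CPM per kb.

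**Figure D1:**
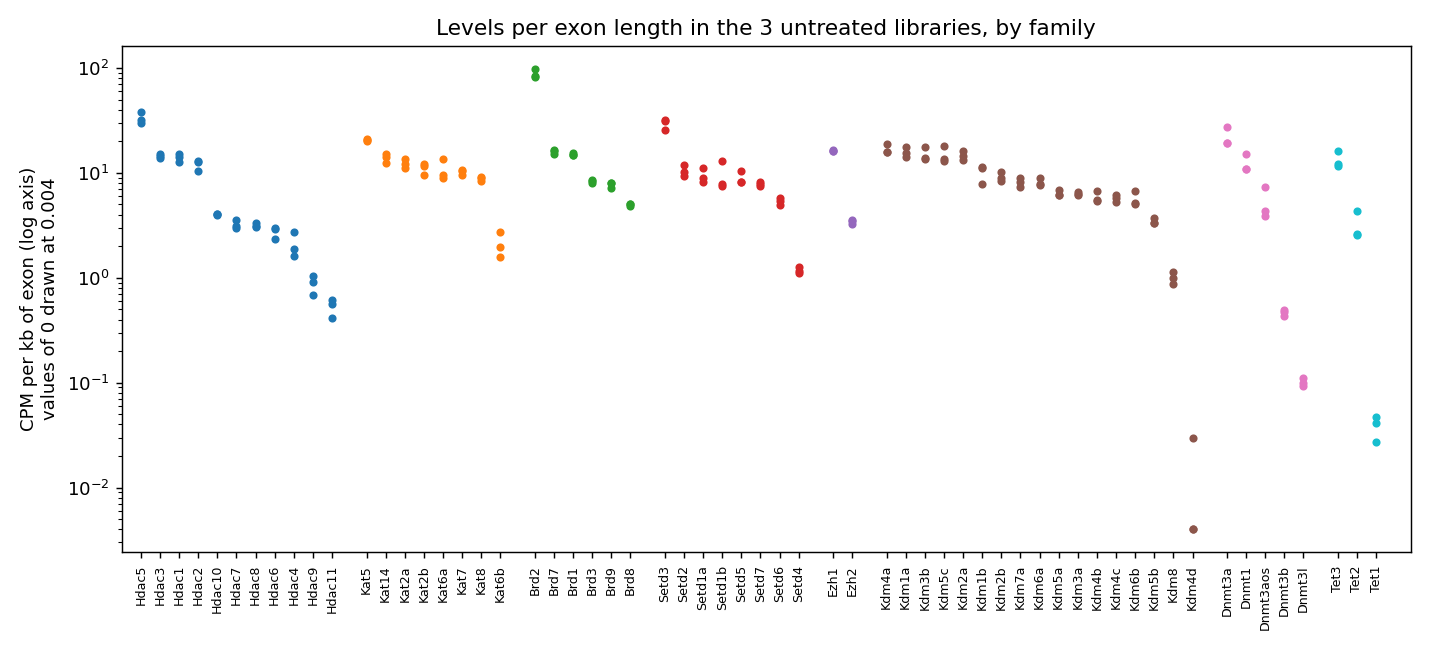
Levels of 60 of the 61 members in the 3 untreated libraries, as CPM per kilobase of exon on a log axis, ordered within each family; each point is a library, and values of 0 are drawn at the foot of the axis. Brd2 stands highest at a mean of 87.8 CPM per kb and Kdm4d lowest, listed at 0 in untreated 8 and 9.

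With the PD-L1 antibody the group as a whole did not shift against the isotype antibody, but single enzymes did, in both directions. Against the isotype antibody 12 members rose and 11 fell of 60 tested (limma with Benjamini-Hochberg adjustment, adjusted p under 0.05), or 38.3% of them, against 36.4% of all tested genes (18.2% higher and 18.2% lower). The members' median log2 fold change was 0.00 and that of all genes -0.01. Against untreated cells 21 rose and 9 fell, or 30 of 60, against 42.4% of all genes (22% higher and 20.5% lower), with a median of 0.15 against -0.01. The libraries of the groups did not overlap for 31 members in the first comparison, where 52.1% of all genes did so, and for 38 in the second (51.2% of all genes). The share of members called is thus near that of all genes against the isotype antibody only. In the comparison with untreated cells a larger share of members than of all genes was higher (21 of 60, beside 22%). A smaller share was lower (9 of 60, beside 20.5%). This upward excess was not tested, and what follows describes which enzymes moved. A scaling by total count, under which the median of all genes is -0.16 against the isotype antibody and -0.13 against untreated cells, turned the member counts into 6 higher and 16 lower, and 13 higher and 16 lower.

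Both comparisons use the same PD-L1 antibody libraries and are not independent, so the values are given side by side. Brd1, Hdac5 and Hdac6 passed the test against the isotype antibody and not against untreated cells. Brd7, Dnmt1, Hdac4, Kat6a, Kdm5a, Kdm5b, Kdm5c, Setd2, Setd6 and Tet2 did so against untreated cells and not against the isotype antibody, and 8 of these 10 have at least 5000 bases of exon (median 8225, against 4661 for all tested members). The difference between these effects is the comparison of the controls below, in which none of the 10 passed with all libraries and 7 passed without untreated 7. A change of at least 1.5-fold was called for 3 members upward and 5 downward against the isotype antibody (8.97% and 9.61% of all genes) and for 9 upward and 5 downward against untreated cells (10.4% and 10.7%), which makes 14 genes in all.

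**Figure D2:**
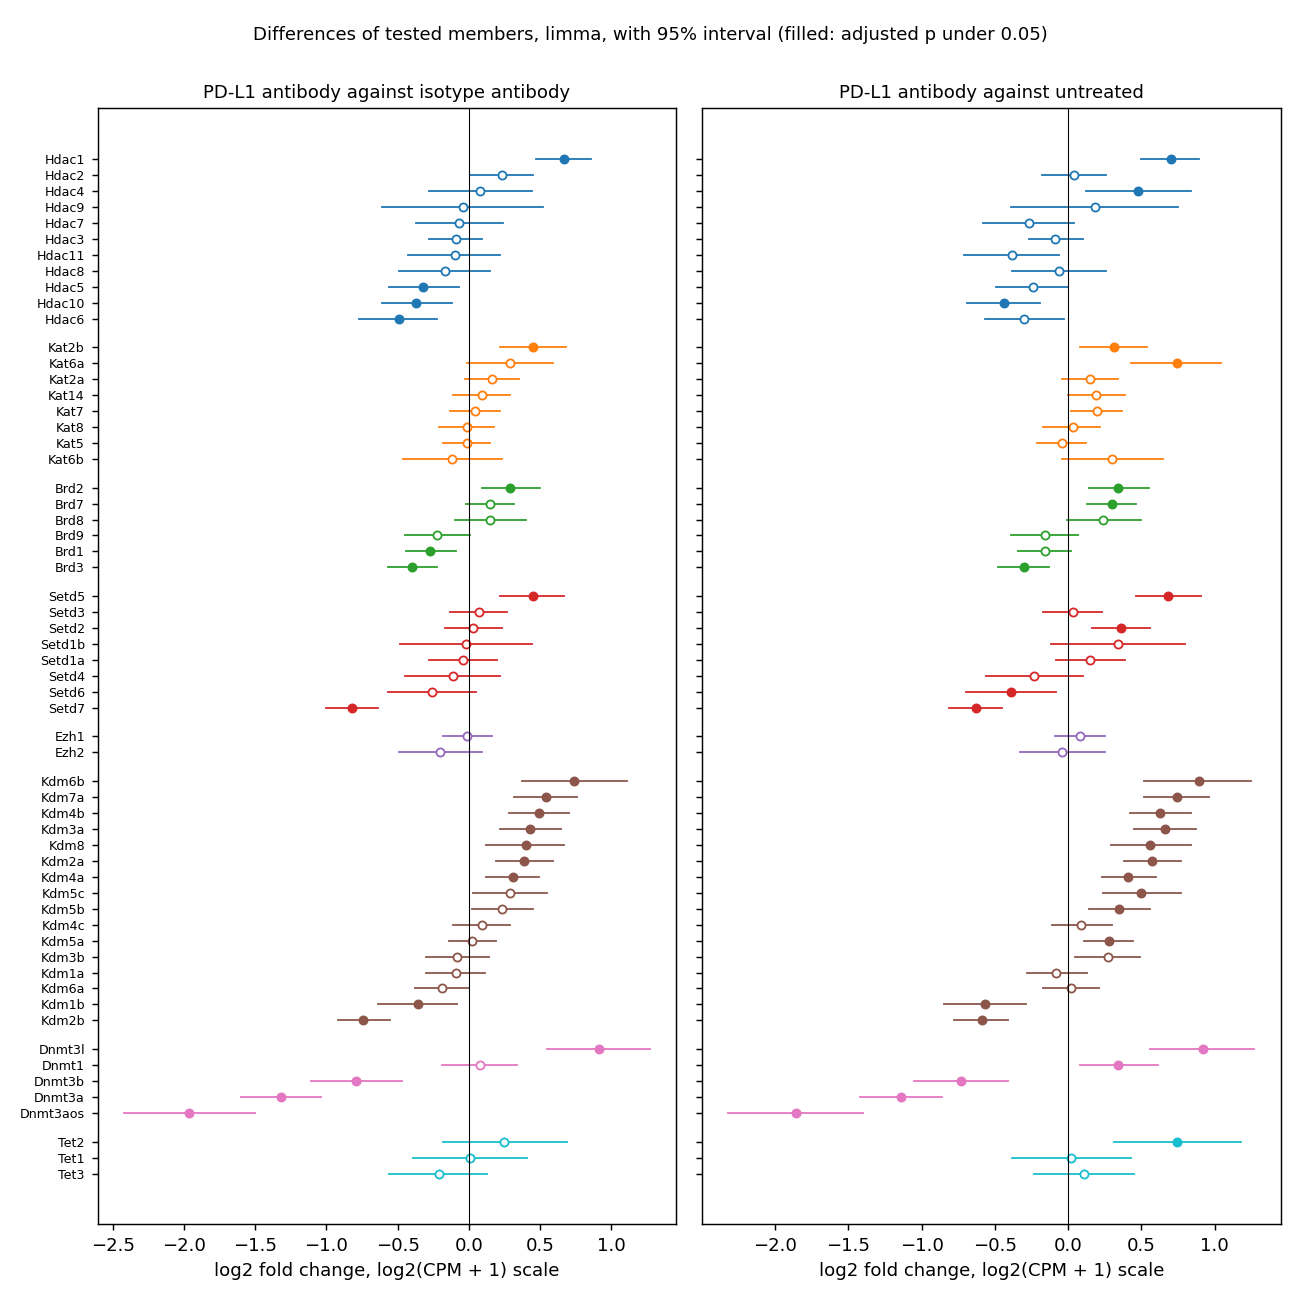
Log2 fold change of the tested members, all but 1 of the 60, with the PD-L1 antibody, against the isotype antibody (left) and against untreated cells (right), on the log2(CPM + 1) scale with 95% confidence intervals; colours mark families and filled points an adjusted p under 0.05. The Dnmt3aos, Dnmt3a, Setd7, Dnmt3b and Kdm2b points lie lowest and those of Dnmt3l, Kdm6b and Hdac1 highest against the isotype antibody.

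Among the writers of DNA methylation, the de novo enzyme gene Dnmt3a fell to well under the level of either control. Dnmt3a was measured at 89.1, 102 and 93.5 CPM in PD-L1 antibody libraries 1 to 3, at 230, 230 and 255 in isotype libraries 4 to 6 and at 266, 187 and 187 in untreated libraries 7 to 9. Every PD-L1 antibody library was thus below every control library. The log2 fold change was -1.32 against the isotype antibody (SE 0.13, limma adjusted p = 1.57e-05) and -1.14 against untreated cells (SE 0.13, adjusted p = 4.17e-05). Dnmt3a lies on chromosome 12 (3806980 to 3914443, plus strand), and its 3 listed transcripts share most of their exons and gave PD-L1 over isotype ratios of 0.397, 0.397 and 0.383. Summed per exon length, Dnmt3a made up 35.5 to 39.1% of the Dnmt mRNA with the PD-L1 antibody, 61.1 to 62.1% with the isotype antibody and 62.7 to 63.4% untreated.

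Promoters of this gene are shown because it is the most abundant of the Dnmt genes per length in both controls, its product acts on the CpG dinucleotides marked, and its transcripts begin at separate starts. They are from RefSeq (build GRCm38.p6), 250 bases before to 50 bases after the start, 5′ to 3′ in the direction of the gene, with each CpG in capitals. The promoter of Dnmt3l is set beside them as that of a member that rose from a trace level. The 4 promoters printed here and below were chosen after their CpG counts were seen.
Dnmt3a, upstream start, chr12:3806730-3807029, plus strand: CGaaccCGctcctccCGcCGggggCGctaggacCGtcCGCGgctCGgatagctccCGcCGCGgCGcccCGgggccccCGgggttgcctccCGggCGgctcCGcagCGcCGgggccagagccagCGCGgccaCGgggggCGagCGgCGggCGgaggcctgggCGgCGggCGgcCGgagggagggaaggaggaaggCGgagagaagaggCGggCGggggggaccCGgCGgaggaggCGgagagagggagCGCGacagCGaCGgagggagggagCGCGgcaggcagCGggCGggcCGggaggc
Dnmt3a, internal start, chr12:3891494-3891793, plus strand: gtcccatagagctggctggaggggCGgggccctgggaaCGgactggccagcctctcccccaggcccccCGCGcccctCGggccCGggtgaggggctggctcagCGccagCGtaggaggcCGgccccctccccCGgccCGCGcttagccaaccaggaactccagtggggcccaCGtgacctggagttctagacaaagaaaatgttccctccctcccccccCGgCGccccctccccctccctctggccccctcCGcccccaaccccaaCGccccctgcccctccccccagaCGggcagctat
Dnmt3l, start of the transcript analysed, chr10:78055085-78055384, plus strand: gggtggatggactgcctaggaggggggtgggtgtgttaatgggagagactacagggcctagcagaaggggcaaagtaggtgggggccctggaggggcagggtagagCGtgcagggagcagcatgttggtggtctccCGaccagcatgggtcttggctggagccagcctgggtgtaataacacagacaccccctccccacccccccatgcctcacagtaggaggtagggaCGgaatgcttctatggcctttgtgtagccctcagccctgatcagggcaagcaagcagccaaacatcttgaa
The upstream Dnmt3a promoter holds 46 CpG, a number reached by 1.65% of the 32851 RefSeq promoters, the internal one 18 (reached by 29.7%) and that of Dnmt3l 3 (reached by 76.7%). A further Dnmt3a promoter, with its start 180 bases from the upstream one, is not shown and holds 47 CpG (reached by 1.44%). Since the transcripts share exons, the files do not tell which start the falling Dnmt3a reads came from.

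Dnmt3aos, the antisense RNA inside the Dnmt3a gene (chromosome 12, 3859293 to 3862244, minus strand), moved the same way. Its level was 1.22, 1.36 and 0.990 CPM with the PD-L1 antibody, 6.15, 7.55 and 8.99 with the isotype antibody and 10.3, 5.97 and 5.38 untreated, again with no overlap. At -1.96 on the log2(CPM + 1) scale its log2 fold change against the isotype antibody was the lowest of all members (SE 0.21, limma adjusted p = 3.28e-05). Strand is not stated for these counts, 90 exonic bases are shared with Dnmt3a, and all of Dnmt3aos lies within the span of Dnmt3a. Reads of unspliced Dnmt3a RNA over the Dnmt3aos exons therefore cannot be told apart from those of Dnmt3aos. Their part in its fall was not tested.

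The other Dnmt genes differed in direction. Dnmt3b (chromosome 2, 153649449 to 153687730, plus strand), the second de novo enzyme, was low, at 0.914, 1.07 and 0.501 CPM with the PD-L1 antibody, 2.07, 2.41 and 1.95 with the isotype antibody and 2.02, 1.86 and 2.13 untreated. It fell by 0.79 against the isotype antibody and by 0.73 against untreated cells on the log2(CPM + 1) scale (limma adjusted p = 0.00146 and 0.00215). That scale understates the change at this level, as the ratios of mean CPM were 0.386 and 0.413. Its reads numbered 12.1 to 86.2 a library. Dnmt3l, whose product stimulates Dnmt3a and Dnmt3b, was at 1.36, 1.52 and 0.703 CPM with the PD-L1 antibody but at no more than 0.297 CPM in any control library. It rose by 0.91 and 0.92 on the log2(CPM + 1) scale (limma adjusted p = 0.00122 and 0.00102), from 2.0 to 10.9 reads in each control library to 17 to 48.6, so its level remained far below that of Dnmt3a. It shares 67 exonic bases with Aire on the other strand in the GENCODE annotation.

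Dnmt1, the maintenance enzyme that copies methylation after replication, stayed close to the isotype antibody. Its level was 83.3, 80.7 and 86.2 CPM with the PD-L1 antibody, 78.3, 74.5 and 84.5 with the isotype antibody and 82.0, 58.4 and 58.6 untreated. The log2 fold change was 0.08 (95% interval -0.19 to 0.34) against the isotype antibody. It was called higher against untreated cells (0.34, limma adjusted p = 0.0389), where untreated 7 overlaps the PD-L1 antibody libraries. That call was lost on leaving out any single library except isotype 6 and untreated 7 (adjusted p 0.0507 to 0.148). It was also lost under total-count scaling (0.20, adjusted p = 0.255). The Dnmt3b calls were lost with edgeR on the deposited read counts (adjusted p 0.0862 and 0.163).

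No TET gene was called against the isotype antibody. Tet2 (chromosome 3, 133463677 to 133544390, minus strand), which oxidises methylcytosine and is a tumour suppressor in myeloid cells, had 40.9, 47.1 and 56.6 CPM with the PD-L1 antibody, 33.4, 39.8 and 47.7 with the isotype antibody and 39.5, 24.1 and 23.4 untreated. The PD-L1 antibody and isotype libraries overlapped (log2 fold change 0.25, 95% interval -0.18 to 0.69), while against untreated cells Tet2 rose by 0.74 (SE 0.20, limma adjusted p = 0.011). Tet3, the most abundant of the family, was at 137, 167 and 198 CPM with the PD-L1 antibody, 168, 205 and 207 with the isotype antibody and 189, 136 and 140 untreated, so that no group stood apart. Tet1 was below 1 CPM in every library. The Tet2 call was lost with edgeR on the deposited read counts (log2 fold change 0.64, adjusted p = 0.0825).

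**Figure D3:**
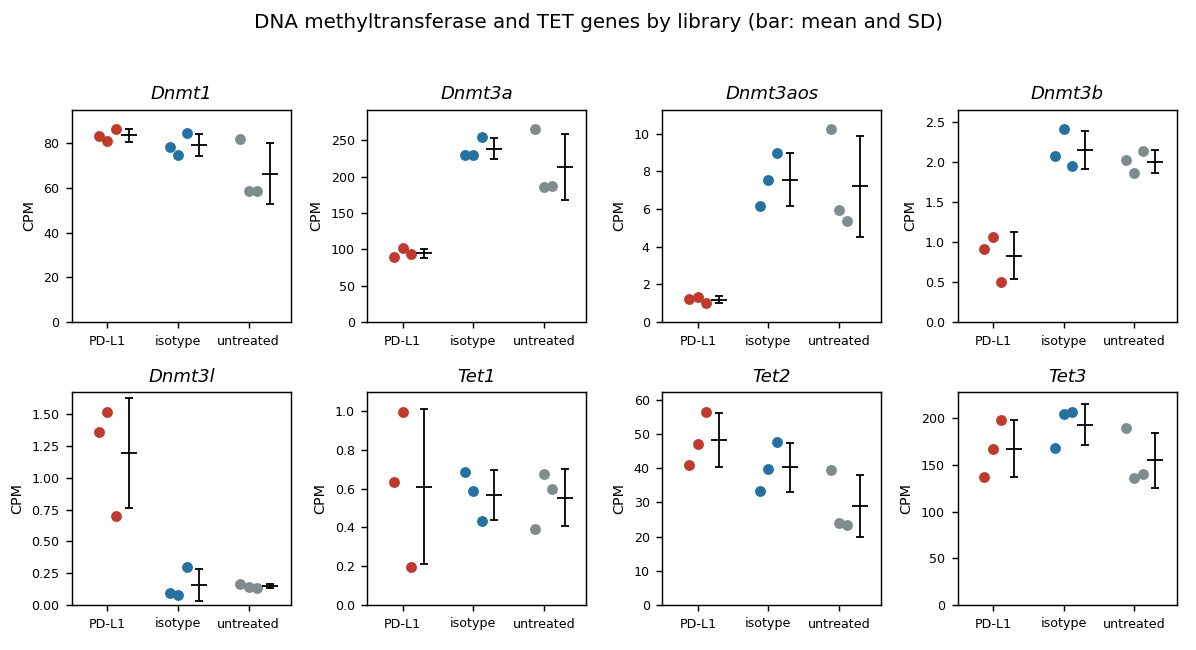
CPM of the Dnmt and Tet genes in each of the 9 libraries, with bars for the mean and SD of each group of 3. Dnmt3a, Dnmt3aos and Dnmt3b are lower in every PD-L1 antibody library than in any control library, Dnmt3l is higher in each, and the Tet genes overlap between the antibodies.

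Of the 8 Setd genes 1 rose and 1 fell against the isotype antibody, and 2 rose and 2 fell against untreated cells. Setd7 (chromosome 3, 51515318 to 51560823, minus strand), which places a single methyl group on histone H3 and on other proteins, was at 39.4, 33.7 and 37.0 CPM with the PD-L1 antibody, at 62.1, 69.2 and 65.3 with the isotype antibody and at 57.5, 59.7 and 54.7 untreated. It fell by 0.82 against the isotype antibody and by 0.63 against untreated cells (SE 0.08 for both, limma adjusted p = 2.35e-05 and 0.000139). Setd5 (chromosome 6, 113077639 to 113153424, plus strand), a SET-domain protein found with deacetylase corepressors, went the other way, at 89.7, 94.2 and 94.7 CPM with the PD-L1 antibody against 65.0, 64.5 and 74.6 with the isotype antibody and 67.4, 53.4 and 52.4 untreated. Its log2 fold changes were 0.45 (SE 0.10, limma adjusted p = 0.00583) and 0.68 (adjusted p = 0.000341). For both genes the PD-L1 antibody libraries lay outside the range of all control libraries.

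Setd2, the main writer of methylation along transcribed gene bodies, rose against untreated cells (0.36, limma adjusted p = 0.00808) and stood at 0.03 against the isotype antibody. Setd3, which methylates actin and had the highest level per length of the family, was at 84.2, 82.2 and 78.1 CPM with the PD-L1 antibody, 76.5, 76.0 and 80.5 with the isotype antibody and 69.3, 86.0 and 84.7 untreated, with overlap throughout. Neither catalytic subunit of Polycomb repressive complex 2 was called. Ezh1 was at 75.2, 72.8 and 70.7 CPM, 78.8, 67.2 and 74.5 CPM, and 68.1, 68.7 and 69.5 CPM in the same order of groups, and its log2 fold change against the isotype antibody was -0.01. Ezh2 ran from 7.92 to 11.9 CPM over all libraries (log2 fold change -0.20, adjusted p = 0.271), and Ezh1 made up 80.7 to 84.9% of the pair per length in every library. Setd7 shares 131 exonic bases with 5031434O11Rik on the other strand. Under total-count scaling the Setd5 change against the isotype antibody was 0.27 and no longer called (adjusted p = 0.0811), and that of Setd2 against untreated cells was 0.21 (adjusted p = 0.113). Setd6, called lower against untreated cells (-0.39, limma adjusted p = 0.0428), lost the call without PD-L1 antibody 1 or 2, isotype 5 or any one of the untreated libraries (-0.34 to -0.45, adjusted p 0.0527 to 0.136).

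Of 16 tested demethylase (Kdm) genes, 7 rose and 2 fell against the isotype antibody (56.2%, beside 36.4% of all genes), with a median log2 fold change of 0.26. Against untreated cells 10 rose and 2 fell (75.0%, beside 42.4%), with a median of 0.38. Summed per exon length, Kdm mRNA was 175 to 189 CPM per kb with the PD-L1 antibody, 161 to 165 with the isotype antibody and 141 to 158 untreated. Under total-count scaling the counts were 3 higher and 4 lower against the isotype antibody (median 0.09) and 8 higher and 2 lower against untreated cells (median 0.23).

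Kdm6b (JMJD3, chromosome 11, 69398518 to 69413675, minus strand) removes the Polycomb mark from histone H3 and is known as a gene induced in activated macrophages. It was at 59.8, 62.7 and 89.9 CPM with the PD-L1 antibody, 45.8, 43.7 and 35.2 with the isotype antibody and 45.1, 33.3 and 34.3 untreated. PD-L1 antibody 3 was the highest of all, and all 3 exceeded every control library. The log2 fold change was 0.74 against the isotype antibody (SE 0.17, limma adjusted p = 0.00524) and 0.89 against untreated cells (adjusted p = 0.00151). Its relative Kdm6a, which removes the same mark, was at 45.1 to 51.9 CPM with the PD-L1 antibody and 54.9 to 56.6 with the isotype antibody (log2 fold change -0.19, adjusted p = 0.109). The share of Kdm6b in the pair per length was 51.7, 51.9 and 64.0% with the PD-L1 antibody, 36.4 to 42.0% with the isotype antibody and 39.2 to 43.0% untreated. Kdm6b shares 286 exonic bases with the antisense gene Kdm6bos, whose reads could not be separated without strand.

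Kdm7a (chromosome 6, 39136620 to 39206773, minus strand), which removes repressive methyl marks from histone H3, was at 119, 150 and 126 CPM with the PD-L1 antibody, 86.7, 93.9 and 89.6 with the isotype antibody and 70.7, 78.6 and 85.3 untreated. The log2 fold changes were 0.54 (SE 0.10, limma adjusted p = 0.00154) and 0.74 (adjusted p = 0.000154), with no overlap between the PD-L1 antibody and either control. Its promoter is shown as the one with the most CpG among the members, again with CpG in capitals. 
Kdm7a, chr6:39206724-39207023, minus strand: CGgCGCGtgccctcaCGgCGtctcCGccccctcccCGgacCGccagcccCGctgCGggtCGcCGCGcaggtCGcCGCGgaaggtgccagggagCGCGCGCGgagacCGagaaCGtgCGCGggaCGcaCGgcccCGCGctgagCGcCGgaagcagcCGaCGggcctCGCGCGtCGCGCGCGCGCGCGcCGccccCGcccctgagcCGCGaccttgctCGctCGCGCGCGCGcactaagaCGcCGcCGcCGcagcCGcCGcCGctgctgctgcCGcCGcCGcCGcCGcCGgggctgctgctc
It holds 65 CpG, a number reached by 3 of the 32851 promoters (0.00913%), and none of the 4 motifs searched. The gene shares 174 exonic bases with 4930599N23Rik on the other strand, which rose as well (log2 fold change 0.54, limma adjusted p = 0.0259).

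Kdm4b, Kdm3a and Kdm4a act on a repressive mark of heterochromatin, among others, and rose, while their relatives Kdm4c and Kdm3b did not pass. Kdm4b (chromosome 17, 56326050 to 56402873, plus strand) was at 42.3, 41.4 and 42.7 CPM with the PD-L1 antibody, 29.6, 31.5 and 28.0 with the isotype antibody and 30.8, 24.9 and 25.3 untreated (log2 fold changes 0.49 and 0.63, limma adjusted p = 0.00209 and 0.00037). Kdm3a (chromosome 6, 71588970 to 71632686, minus strand), whose transcript is also known to respond to hypoxia, was at 48.4, 53.1 and 45.9 CPM against 31.7, 38.2 and 38.6 with the isotype antibody and 31.8, 29.8 and 30.2 untreated (0.43 and 0.66, adjusted p = 0.00454 and 0.000265). Each of these genes had all 3 PD-L1 antibody libraries above all 6 controls. Kdm4a, the most abundant demethylase per length in untreated cells, was at 105, 99.4 and 106 CPM, against 83.1, 82.0 and 85.3 with the isotype antibody and 87.7, 72.4 and 73.3 untreated (0.31 and 0.41, adjusted p = 0.0152 and 0.00252). Kdm4c was at 0.09 in both comparisons, and Kdm3b at -0.08 and 0.27 (adjusted p = 0.573 and 0.0521).

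The paralogs Kdm2a and Kdm2b, which bind CpG islands and remove methylation linked to transcribed regions, moved apart. Kdm2b (chromosome 5, 122870676 to 122989099, minus strand), which also recruits Polycomb repressive complex 1, was at 30.4, 31.7 and 30.9 CPM with the PD-L1 antibody, 50.2, 54.6 and 52.4 with the isotype antibody and 52.3, 43.7 and 46.3 untreated. It fell by 0.74 and by 0.59 on the log2 scale (SE 0.08 for both, limma adjusted p = 5.38e-05 and 0.000229). Kdm2a was at 146, 162 and 170 CPM with the PD-L1 antibody, 116, 125 and 122 with the isotype antibody and 118, 106 and 96.9 untreated, and rose by 0.39 and 0.57 (adjusted p = 0.00554 and 0.00045). In both genes the PD-L1 antibody libraries were clear of the controls, and Kdm2a made up 77.4 to 79.7% of the pair per length with the PD-L1 antibody, 62.0 to 62.3% with the isotype antibody and 59.8 to 63.4% untreated. Kdm2b shares 627 exonic bases with Rnf34 on the other strand, which was at 89.3 ± 3.59 CPM against 71.2 ± 9.37 CPM between the antibodies (SD, n = 3 each, PD-L1 antibody first).

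Kdm1b, a flavin-dependent demethylase of active histone marks, fell by 0.36 and 0.57 (limma adjusted p = 0.0478 and 0.00447), while its paralog Kdm1a was at -0.09 and -0.08. Kdm1b shares 505 exonic bases with Dek on the other strand, which was at -0.31 and -0.56. Kdm8, a JmjC hydroxylase, was at 3.69 to 4.39 CPM with the PD-L1 antibody and 2.15 to 3.03 in the controls (0.40 and 0.56, adjusted p = 0.0272 and 0.00393). Kdm5a, Kdm5b and Kdm5c, which remove the methyl mark of active promoters, were called against untreated cells (0.28, 0.35 and 0.50). The Kdm5a call was lost without untreated 8 or 9 (0.24 and 0.25, adjusted p = 0.055 and 0.0528) and that of Kdm5b without PD-L1 antibody 2 (0.29, adjusted p = 0.0565). Total-count scaling ended the calls of Kdm5a and Kdm5b too (0.13 and 0.21, adjusted p = 0.239 and 0.104). The calls against the isotype antibody depended on 1 library for Kdm1b (lost without any one of the 6 libraries compared, adjusted p 0.0667 to 0.143), Kdm8 (without PD-L1 antibody 1 or 2 or isotype 4 or 5, 0.058 to 0.0967) and Kdm4a (without PD-L1 antibody 1 or isotype 5, 0.0513 and 0.0547). Those of Kdm2a, Kdm3a, Kdm4a and Kdm8 were lost under total-count scaling (log2 fold changes 0.13 to 0.26).

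Of 11 deacetylase genes 1 rose and 3 fell against the isotype antibody (36.4%, the same as the 36.4% of all genes). Against untreated cells 2 rose and 1 fell (27.3%, beside 42.4% of all genes). Under total-count scaling the counts were 1 higher and 4 lower, and 1 higher and 6 lower. Hdac1 (chromosome 4, 129516104 to 129542646, minus strand) was the gene that rose in both. This class I enzyme, a catalytic subunit of the Sin3, NuRD and CoREST corepressor complexes, had 42.1, 45.9 and 47.0 CPM with the PD-L1 antibody, 28.8, 26.7 and 28.2 with the isotype antibody and 25.0, 27.7 and 29.5 untreated. The groups were well apart, with rises of 0.67 against the isotype antibody (SE 0.09, limma adjusted p = 0.000158) and 0.70 against untreated cells (adjusted p = 0.000106) on the log2 scale. Its partner and paralog Hdac2 was at 24.6, 25.8 and 23.7 CPM, 20.5, 21.6 and 20.5 CPM, and 20.8, 25.2 and 26.2 CPM in the same order, and was not called (0.23, adjusted p = 0.0976 against the isotype antibody). Hdac1 thus made up 63.5 to 66.8% of the pair per length with the PD-L1 antibody, 55.7 to 58.8% with the isotype antibody and 52.8 to 55.0% untreated. The class I genes Hdac3, the catalytic subunit of the NCoR complex, and Hdac8 were not called (-0.09 and -0.17).

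The class IIb genes stood lower with the PD-L1 antibody. Hdac6, a cytoplasmic tubulin deacetylase, was at 9.29, 8.24 and 9.45 CPM with the PD-L1 antibody, 11.7, 13.0 and 14.7 with the isotype antibody and 12.3, 9.73 and 12.02 untreated, with no overlap. It fell by 0.49 against the isotype antibody (limma adjusted p = 0.00935) and stood at -0.30 against untreated cells (adjusted p = 0.0734). Hdac10 was at 6.62 to 8.57 CPM with the PD-L1 antibody and at 10 to 11 in the controls (-0.37 and -0.44, adjusted p = 0.0243 and 0.0087). Hdac5, a class IIa enzyme that shuttles between nucleus and cytoplasm, was at 118, 111 and 135 CPM against 150, 164 and 139 with the isotype antibody and 166, 138 and 128 untreated (-0.32, adjusted p = 0.0447, and -0.24, adjusted p = 0.0998). The Hdac5 call was lost without PD-L1 antibody 1 or 2, isotype 4 or 5 or untreated 8 (adjusted p 0.0543 to 0.158) and with edgeR on exonic reads (0.0516). That of Hdac10 against the isotype antibody was lost without PD-L1 antibody 3 or isotype 5 or 6 (0.066 to 0.0929). Hdac4, of class IIa, was called against untreated cells (0.48, adjusted p = 0.0368), a call that no longer held without any one of the PD-L1 antibody libraries, isotype 5, untreated 8 or untreated 9 (0.32 to 0.51, adjusted p 0.0511 to 0.149). Nor did it hold under total-count scaling (0.33, adjusted p = 0.147). Hdac4 shares 1782 exonic bases with Gm26720 on the other strand.

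**Figure D4:**
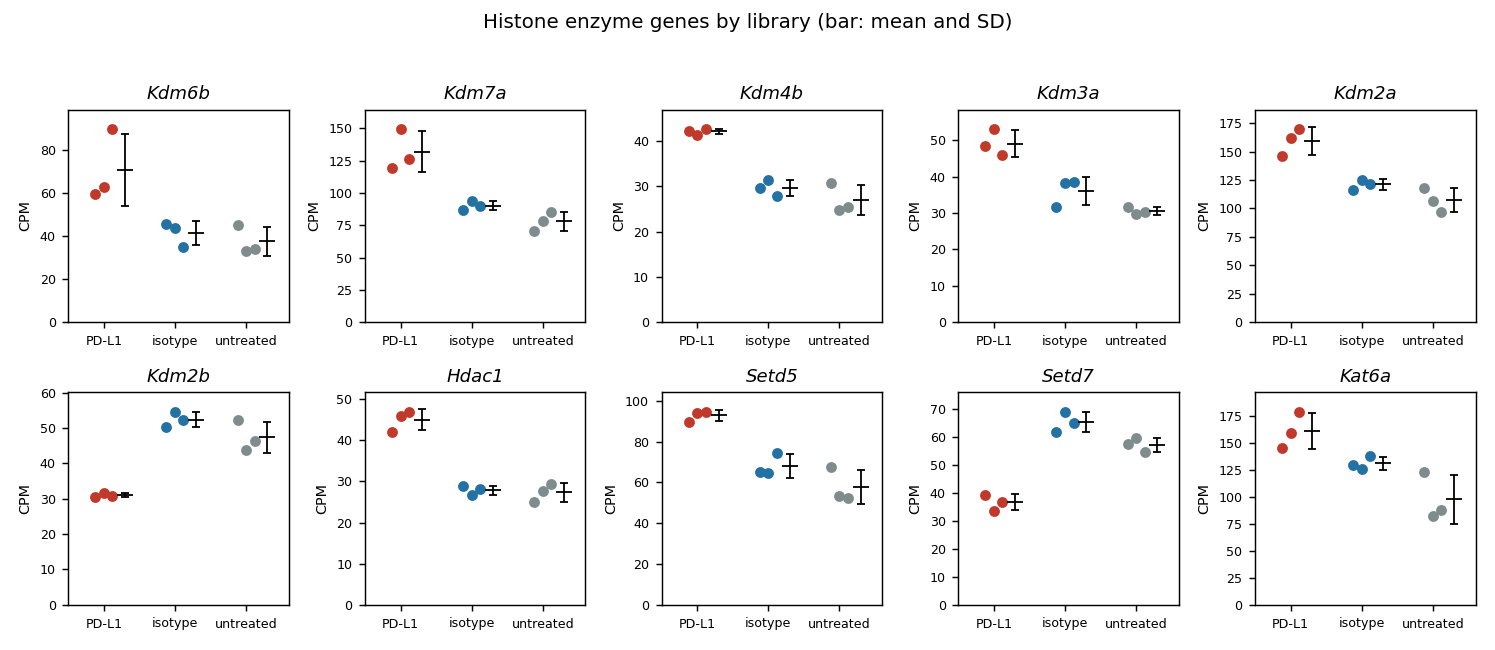
CPM of 10 histone enzyme genes in each of the 9 libraries, with bars for the mean and SD of each group of 3. In Kdm6b, Kdm7a, Kdm4b, Kdm3a, Kdm2a, Hdac1, Setd5 and Kat6a the PD-L1 antibody libraries are above all controls, in Kdm2b and Setd7 below them; Kat6a was not called against the isotype antibody.

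Against untreated cells 2 of 8 acetyltransferase genes rose and none fell (25.0%, beside 42.4% of all genes). Against the isotype antibody 1 rose and none fell (12.5%, beside 36.4% of all genes). That one was Kat2b (PCAF), at 58.7, 70.5 and 63.3 CPM with the PD-L1 antibody, 49.0, 45.6 and 45.5 with the isotype antibody and 44.4, 56.9 and 54.0 untreated (log2 fold changes 0.45 and 0.31, limma adjusted p = 0.00604 and 0.0333). Kat6a (MOZ, chromosome 8, 22859539 to 22943262, plus strand), a histone H3 acetyltransferase needed for blood stem cells, was at 146, 159 and 179 CPM with the PD-L1 antibody, 130, 126 and 138 with the isotype antibody and 124, 82.0 and 88.0 untreated. Kat6a rose by 0.74 against untreated cells (adjusted p = 0.00139) and stood at 0.29 against the isotype antibody (adjusted p = 0.121), although no library of these groups overlapped. Kat5 (TIP60), the family's most abundant member per length, ran from 38.7 to 43.0 CPM over all 9 libraries with log2 fold changes of -0.01 and -0.04. The Kat2b call against untreated cells was lost without PD-L1 antibody 2 or 3 or untreated 7 (0.24, 0.32 and 0.20, adjusted p 0.0704 to 0.13) and under total-count scaling (0.16, adjusted p = 0.196). Summed per exon length, Kat mRNA came to 102 to 106 CPM per kb with the PD-L1 antibody, 92.5 to 96.8 with the isotype antibody and 87.1 to 93.8 untreated.

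Brd2 and Brd3, readers of acetylated histones of the BET group, moved in opposite directions. Brd2 was at 503, 495 and 561 CPM with the PD-L1 antibody, 418, 445 and 407 with the isotype antibody and 456, 389 and 384 untreated, and rose by 0.29 and 0.34 (limma adjusted p = 0.029 and 0.012). Brd3 was at 33.5, 37.3 and 35.5 CPM against 45.1, 46.0 and 49.8 with the isotype antibody and 44.5, 45.1 and 42.1 untreated, and fell by 0.40 and 0.30 (adjusted p = 0.0024 and 0.00984). In both genes the PD-L1 antibody libraries did not overlap the controls. Brd1, a scaffold of acetyltransferase complexes, fell by 0.27 against the isotype antibody (adjusted p = 0.0229), and Brd7, of a SWI/SNF remodelling complex, rose by 0.30 against untreated cells (adjusted p = 0.00952).

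The call of Brd2 against the isotype antibody was lost without PD-L1 antibody 1 or 3 or isotype 4 or 6 (log2 fold change 0.24 to 0.32, adjusted p 0.0571 to 0.106) and under total-count scaling (0.12, adjusted p = 0.37). Its call against untreated cells was lost without untreated 8 or 9 (adjusted p 0.0539 and 0.0557) and under total-count scaling (0.19, adjusted p = 0.135). The Brd7 call was lost under total-count scaling (0.15, adjusted p = 0.162). That of Brd1 was lost without PD-L1 antibody 1 or 2 or isotype 4 or 5 (-0.21 to -0.27, adjusted p 0.0594 to 0.0997). Brd2 shares 313 exonic bases with H2-DMa, an antigen presentation gene on the other strand, which went from 124 ± 22.2 CPM with the isotype antibody to 72.7 ± 3.01 with the PD-L1 antibody (SD, n = 3), opposite to Brd2.

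The isotype antibody alone changed no member by the test. Against untreated cells 0 of 60 were called by limma, and none by edgeR, DESeq2 or limma-voom, while 12 had an unadjusted p under 0.05. Of all genes 1 was called (0.00728%), and 12.7% had an unadjusted p under 0.05. The member median was nevertheless 0.12 against 0.00 for all genes, 48 of 60 log2 fold changes were above 0, and 11 members had no overlap between the groups (13.2% of all genes). Without untreated 7 the picture was another: 2295 genes and 18 members were called, 16 of them higher with the isotype antibody, among them Tet2 (0.73), Kat6a (0.62), Kat6b (0.61), Setd1b (0.61) and Hdac4 (0.60), with Hdac2 (-0.29) and Kdm1b (-0.38) lower. In the same fit 28 members rose and 9 fell with the PD-L1 antibody against untreated cells. Over all genes 6766 were called there, beside 5831 with all libraries.

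These differences from untreated cells went with the length of the transcript. Across the 60 members the log2 fold change of isotype antibody over untreated had a Spearman rho of 0.68 with exon length, beside 0.37 across all 13741 genes, as a description over genes that share the same libraries. The 26 members with at least 5000 bases of exon had a median of 0.21 and the 34 shorter ones 0.04, beside 0.15 and -0.02 over all genes. For the PD-L1 antibody against untreated cells rho was 0.34 (medians 0.30 and 0.03), and for the PD-L1 antibody against the isotype antibody 0.11 (0.02 and -0.01). Over all genes these values were 0.14 (0.11 and -0.03) and -0.01 (-0.03 and -0.01). Untreated 7 differed from untreated 8 and 9 in the same way, with a rho of 0.44 over members and a median difference of 0.36 for the long and 0.03 for the short ones. Over all genes rho was 0.29, with medians of 0.19 and -0.04.

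With the trend on exon length removed from each library, an alternative added after the data were seen, 17 members rose and 10 fell against untreated cells and 14 rose and 10 fell against the isotype antibody. Over all genes 5892 were called against untreated cells and 5249 against the isotype antibody. Tet2 (0.57, limma adjusted p = 0.00772) and Kat6a (0.56, adjusted p = 0.000444) were still called against untreated cells, and Dnmt1, Kat2b, Kdm5a, Kdm5b and Setd6 were not. Against the isotype antibody Kat6a (0.34, adjusted p = 0.011) and Kdm5c (0.35, adjusted p = 0.00393) were now called, and Kdm1b was not (-0.34, adjusted p = 0.0811).

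**Figure D5:**
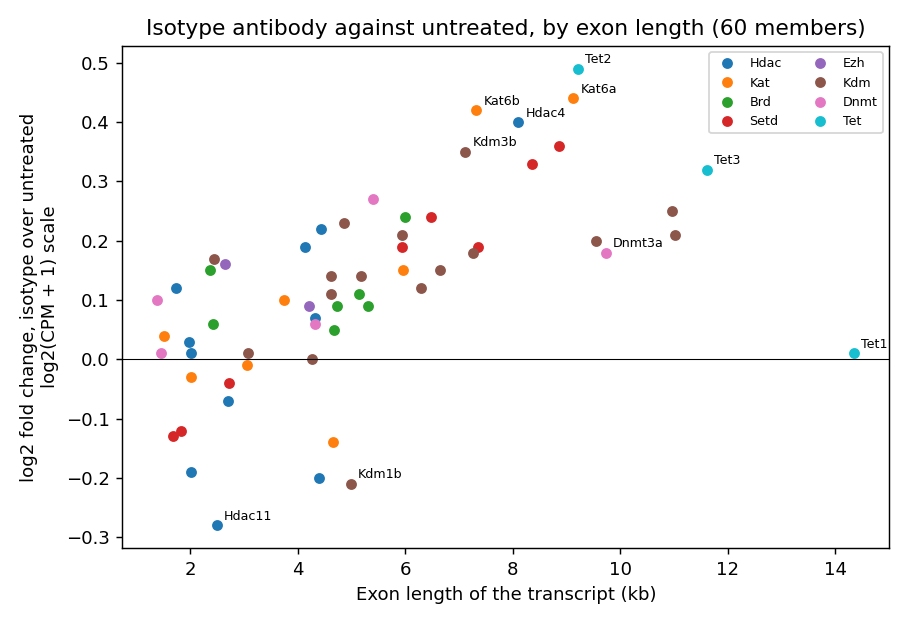
Log2 fold change of isotype antibody over untreated for the 60 tested members on the log2(CPM + 1) scale, against the exon length of the transcript in kilobases, coloured by family. The long genes Tet2, Kat6a, Kat6b and Hdac4 lie highest and several short ones below 0 (Spearman rho 0.68); Tet1, which is below 1 CPM, is the longest and lies at 0.01.

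Reads over a gene's span but outside the exons of its transcript gave the same direction for most of the strongest members. Such reads can come from introns or from exons of other transcripts of the gene, which were not separated. Of the 14 genes with a called change of at least 1.5-fold, 12 had non-exonic reads without overlap between the antibodies in the direction of the exonic change, and the other 2 were Dnmt3b and Tet2. These 14 were chosen by their exonic change. The share of all genes without overlap was not computed for such reads (52.1% on exonic values). Kat6a is among the 12 by 27.3 against 27.2 CPM, and was not called against the isotype antibody. The non-exonic reads of Dnmt3aos lie within the span of Dnmt3a and cannot be told apart from those of Dnmt3a. Dnmt3a had 41.4, 44.8 and 41.0 CPM of such reads with the PD-L1 antibody, 112, 117 and 139 with the isotype antibody and 154, 91.0 and 88.7 untreated, a ratio of the antibody means of 0.346. Hdac1 had 31.8, 31.9 and 33.3 CPM, against 19.8, 20.0 and 21.4 with the isotype antibody, a ratio of 1.59. The ratio was 1.49 for Kdm6b, 1.52 for Kdm7a, 1.35 for Kdm3a, 1.33 for Kdm4b, 1.27 for Setd5, 0.643 for Kdm2b and 0.663 for Setd7. These reads can include those of neighbouring or antisense genes, and were described without a test.

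RefSeq promoters were found for 49 of the 61 genes (73 promoters), and 12 genes, among them Hdac1 and Kdm6b, had none in the table. The median number of CpG in the 300 bases was 23, beside 7 over all 32851 promoters, and 57.5% of the members' promoters held at least 20 CpG, beside 26.5% of all, although some members, such as Dnmt3l above, had few. A degenerate kappa B motif, of the kind bound by NF-kappa B, was found on either strand in 60.3% (50.8% of all), an interferon response element motif in 2.74% (3.44%), and the E2F-type motifs TTTCGCGC and TTTGGCGC in 1.37% (0.323%) and 2.74% (0.514%). With 73 promoters these motif shares rest on 44, 2, 1 and 2 promoters.

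The partners of these enzymes, from lists of related genes, were called at 30.7% against the isotype antibody, beside 36.4% of all genes (24 higher and 35 lower of 192 tested, median -0.04). Against untreated cells they were called at 49.0%, beside 42.4% of all genes (57 higher and 37 lower). Of the 20 tested partners of DNA methylation and demethylation 1 rose and 8 fell against the isotype antibody (45.0%, beside 36.4% of all genes). Gadd45a, a stress gene linked to DNA demethylation, fell by 1.32 (20.9 ± 2.39 against 53.6 ± 2.47 CPM, SD, n = 3, limma adjusted p = 0.000154) and Apex1, a base excision repair enzyme, by 0.66, while Tdg, the glycosylase that removes oxidised methylcytosine, rose by 0.41. Total-count scaling ended the Tdg call (0.24, adjusted p = 0.0577).

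Of the Polycomb genes outside Ezh1 and Ezh2, Eed, the subunit of complex 2 that binds the methyl mark, rose from 34.8 ± 2.85 CPM with the isotype antibody to 58.0 ± 2.76 with the PD-L1 antibody (log2 fold change 0.72, limma adjusted p = 0.00025), the one call among 10 tested partners (10%). Of 18 genes of complex 1, 3 rose and 4 fell (38.9%, near the 36.4% of all genes). The chromodomain genes Cbx6 (8.32 ± 0.533 against 21.1 ± 2.06 CPM, -1.25) and Cbx7 (5.30 ± 0.78 against 12.5 ± 0.885 CPM, -1.11) fell, while Bmi1 (0.59) rose. Both falls were called against untreated cells too (-1.35 and -1.18).

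The counts of the other writers and erasers are against the isotype antibody, where 36.4% of all genes were called. Of 7 sirtuins, the NAD-dependent deacetylases, 1 rose (Sirt6, 0.57) and 4 fell (71.4% called), with Sirt1 at -0.49, Sirt2 at -0.29 and Sirt3 at -0.42. Of 29 corepressor partners of the deacetylases 3 rose and 5 fell (27.6%), led by the NuRD subunit gene Chd3 (-0.49) and by Arid4a (-0.45). Lysine methyltransferases outside the Setd and Ezh families gave 5 rises and 4 falls of 20 tested (45.0%), among them Kmt5a (0.63), Setdb2 (0.71), Kmt5c (-0.66) and Smyd3 (-0.62, not called with edgeR on the deposited read counts, adjusted p = 0.209). None of the 14 genes of the KMT2 complexes, the main writers at active promoters and enhancers, was called against the isotype antibody by limma, with 0 at an unadjusted p under 0.05. Other JmjC genes gave 2 rises and 4 falls of 10 (Riox1 -0.55, Jmjd6 0.54), acetyltransferase partners 2 and 2 of 29 (Ing4 -0.63, Jade2 0.68), other acetyltransferases 0 and 1 of 8 (Ncoa3 -0.35), other bromodomain and P-TEFb genes 5 and 2 of 24 (Smarca2 -0.63, Baz1b 0.41), and arginine methyltransferases 1 and 1 of 8. The arginine methyltransferase calls, Prmt1 (0.24) and Prmt3 (-0.33), were lost on leaving out single libraries (adjusted p 0.0567 to 0.111). Under total-count scaling the bromodomain and P-TEFb list had 1 higher and 8 lower, the deacetylase corepressor partners 0 and 11, the acetyltransferase partners 2 and 8, and the lysine methyltransferases 2 and 5.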

How the data were processed

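Poly(A)-selected RNA of 9 macrophage samples was sequenced as paired reads of 150 bases, per the labels' protocols. Partek and STAR are named in the submitters' processing notes, without versions; a genome build is not given in the sources used here, but for 44 of the 49 members with a RefSeq promoter (GRCm38.p6) the deposited transcript start is at the start listed there. The deposited files list RefSeq transcripts with, per the file headers, a read count and an average coverage. The read counts, as tested on the deposited files, cover a transcript's whole genomic span, introns included.

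Exonic read equivalents were computed as average coverage times exon length over read length, taking for each symbol the transcript with the highest sum. Genes passing edgeR's filterByExpr were scaled by TMM, turned into log2(CPM + 1), which understates changes of low genes, and fitted with limma (trended variance, all 9 libraries, 1 mean per group); tests were two-sided with Benjamini-Hochberg adjustment over all 13741 genes and a threshold of 0.05. PCR duplicates are not marked by molecular identifiers, so reads are not independent molecules, and depth limits the genes below about 1 CPM most.

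The members and the gene lists were chosen with earlier results of these data known. Values per library are given for members called with at least a 1.5-fold change against either control and for the most abundant member of each family per exon length; Kdm2a, Dnmt1, Hdac2, Hdac6, Kat2b and Brd3, given per library beyond that rule, were chosen after their values were seen. From related lists, up to 4 of the genes with the lowest p against the isotype antibody are named. Alternatives, 23 in number, changed the scaling, filter, pseudocount, tool, transcript choice, groups fitted or threshold, or left out each library, and 1 of them, the removal of an exon-length trend, was added after the data were seen. The procedure was tested on simulated data. Of the members, 1 is counted in all totals but not reported by name here. Tests and alternatives ran in limma 3.58.1, edgeR 4.0.16 and DESeq2 1.42.0 under R 4.3.3; pandas 2.3.3, numpy 2.4.6 and matplotlib 3.10.9 were used under Python 3.11.15.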

Additional observations from a re-analysis of the deposited data

How the results depend on the processing

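No paired analysis was possible because the groups share no replicate number. Of 26 results on the 14 members changed at least 1.5-fold, under 23 alternatives (22 for Dnmt3b and Dnmt3l, which do not reach the mean of 5 CPM that 1 of them asks for), 588 of 594 values kept direction and call, 6 lost the call and none reversed. The lost calls were those of Dnmt3b in both comparisons and of Tet2 against untreated cells with edgeR on deposited read counts, of Kdm3a (0.26, adjusted p = 0.063) and Setd5 (0.27, adjusted p = 0.0811) against the isotype antibody under total-count scaling, and of Tet2 at a threshold of 0.01. Total-count scaling gave 6 members higher and 16 lower against the isotype antibody, and 13 higher and 16 lower against untreated cells; over all genes it gave 1565 higher and 4143 lower, and 1940 higher and 4088 lower, where the analysis reported gave 2495 and 2501, and 3017 and 2814. TMM factors were 0.919 to 0.932 in the PD-L1 antibody libraries and 1.009 to 1.063 in the others. A threshold of 0.01 left 7 members lower against the isotype antibody, and 3228 and 3821 genes called in the comparisons with isotype antibody and untreated cells.

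Leaving out 1 library at a time gave 9 to 15 members higher and 7 to 12 lower against the isotype antibody (7 without isotype 5), and 17 to 28 higher and 8 to 10 lower against untreated cells (28 without untreated 7). Over all genes 3774 to 6030 and 4524 to 6766 were called in these fits. Without PD-L1 antibody 2, the library of the other lane, the member counts were 11 and 8, and 17 and 8 (3961 and 4760 of all genes called). Between isotype antibody and untreated cells the members called ranged from 0 to 16 higher and from 0 to 2 lower and the genes from 0 to 2295, the highest of each without untreated 7. With all libraries that comparison called 2 genes under total-count scaling and with edgeR on deposited read counts, 13 with DESeq2, and 0 with edgeR on exonic reads, with limma-voom, with only the groups compared or at a threshold of 0.01.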
